A study of Canis lupus familiaris with 12 samples.

Results

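The comparison set 3 arrays of C2 cells kept for 72 h with 100 nM masitinib against 3 arrays of C2 cells taken at 0 h, before the drug was added. These are 6 of the 12 arrays of the series and were chosen by their time and agent labels, and the other arrays come from 3 cultures each at 12 h and 24 h of masitinib. C2 is a line from a canine mast cell tumour, and all groups carry the same tandem duplication in the juxtamembrane unit of KIT, which leaves the receptor active without its ligand. The drug masitinib inhibits the tyrosine kinase activity of KIT, of the platelet-derived growth factor receptors and of Src family kinases. The arrays of a group are flasks of 1 cell line, so the p-values measure only the spread between these flasks, and cultures kept without drug for 72 h are not analysed here, so an effect of masitinib and one of the hours in the flask cannot be told apart.

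KIT is the receptor for stem cell factor, on which mast cells depend for growth and survival. It signals through the RAS and ERK kinases, which switch on early response genes and their own inhibitors, and through PI3K and AKT, which keep FOXO transcription factors out of the nucleus. Mast cells store histamine, proteases and proteoglycans in granules, release them when antigen cross-links the IgE receptor, and make leukotrienes, prostaglandins and cytokines on activation.

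Values below are levels on the log2 scale, where a step of 1 is a doubling, unless a sentence calls them changes, and a log2 change is the mean at 72 h minus the untreated mean. Of 14 mast cell markers 12 had a probe set, with untreated levels from 7.76 for the transcription factor GATA2 to 14.35 for the granule enzyme CPA3, and their mean was 12.06 to 12.16 in the untreated arrays and 12.66 to 12.86 at 72 h. Pearson's r over probe sets, which are not independent, was 0.9965 to 0.9979 among untreated arrays, 0.9952 to 0.9973 among those of 72 h and 0.9689 to 0.9716 between the groups. The 36 probe sets of the poly-A controls, bacterial RNAs added during labelling, read 8.30 to 8.58 untreated and 8.82 to 9.03 at 72 h, a log2 difference of 0.47, and the groups did not overlap. The 27 probe sets of the hybridization controls read 10.73 to 10.81 untreated and 10.91 to 11.04 at 72 h. Their log2 difference was 0.198, again without overlap. How much of the poly-A difference is shared with these controls was not tested. In the bulk RNA of a flask, fewer cells of a type and less RNA per cell cannot be told apart.

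After 72 h most measured genes of mitosis, DNA replication and ribosome assembly were lower, and 19 of 34 FOXO targets and PI3K pathway genes were higher. Single genes of lysosomes, of mast cell mediators and of other blood lineages rose strongly, while most genes of the lysosomal, granule and eicosanoid lists were not called. A gene was called when its adjusted p was under 0.001 and it changed more than 1.5-fold, each gene being read from its brightest probe set. Among the called genes of the named set described below, 197 had more than 1 probe set. In 112 of these every probe set was called the same way, and 4 named genes had probe sets called in both directions. Where no count of probe sets is given with a gene, some of its probe sets may not have been called. Of 15115 genes, 1320 were called higher (8.73%) and 1668 lower (11.0%), and these shares are the background for every list below. The change exceeded 4-fold for 99 of the risen and 194 of the fallen genes, and 8-fold for 27 and 75. In 0 of the 2988 called genes did an untreated array overlap the 72 h arrays. The call rule itself picks genes whose groups are apart, so this lack of overlap is no separate check of the calls.

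In an alternative scaling, the deposited quantile-normalized values of each array were shifted by the mean of its poly-A controls. This moved the median log2 change of all genes from 0.02 to -0.45 and gave 541 genes higher and 4638 lower. Under this scaling 89.55% of the calls were falls in place of 55.82%. All 1668 falls and 538 of the 1320 rises were called the same way under it. Rises of lists are therefore relative to the median gene.

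The largest rises belonged to genes of varied function. PECAM1, an adhesion receptor of endothelium, platelets and leukocytes, read 3.97, 3.90 and 3.74 in the untreated arrays and 8.12, 8.05 and 8.28 at 72 h. Its log2 change was 4.28 (SE 0.18, adjusted p = 7.82e-10), or 19.5-fold, and 3 of its 4 probe sets were called higher. PCK1, which makes phosphoenolpyruvate for gluconeogenesis and is a known FOXO target, read 4.33, 4.84 and 4.64 untreated and 9.03, 8.65 and 8.89 at 72 h, a change of 4.25 (SE 0.12, adjusted p = 4.17e-11) in 1 of its 3 probe sets, the brightest.

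A transporter and 2 hormones stood among the same 15 genes. SLC6A4, the serotonin transporter, rose from 5.47, 5.16 and 4.96 to 8.45, 8.73 and 8.50, a log2 change of 3.36 (SE 0.13, adjusted p = 3.3e-10). PTH, the parathyroid hormone, rose from 7.61, 7.55 and 7.60 to 11.04, 11.22 and 11.13, a change of 3.54 (SE 0.07, adjusted p = 4.24e-12). In both genes the groups lay well apart. TSHB, the beta chain of thyroid stimulating hormone, changed by 3.36 (SE 0.22), FHIT, a hydrolase of diadenosine polyphosphates, by 3.26 (SE 0.08) in all 4 of its probe sets, and AOAH, an acyl hydrolase that detoxifies bacterial lipopolysaccharide, by 3.25 (SE 0.07). The table holds no detection calls, so whether genes with a low untreated value, such as PECAM1 and PCK1, were expressed before masitinib was not tested.

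**Figure D1:**
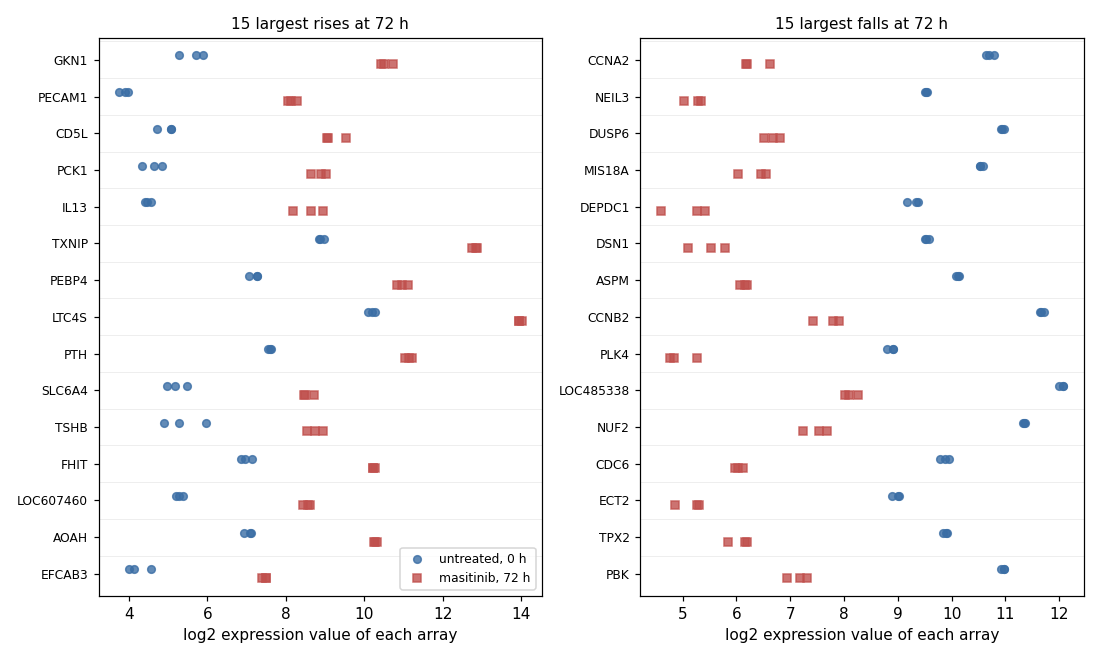
Log2 expression value of each array (horizontal axis) for the 15 genes with the largest rise (left) and the 15 with the largest fall (right) at 72 h, with blue circles for the 3 untreated arrays and red squares for the 3 arrays of 72 h. The genes were chosen by size of change among called genes whose groups did not overlap, so the groups are apart in all 30 by choice. They run from GKN1 with a log2 change of 4.94 to CCNA2 with -4.38.

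Most of the 15 largest falls were genes of replication, repair or mitosis. CCNA2, the cyclin of S phase and mitotic entry, read 10.70, 10.79 and 10.65 untreated and 6.20, 6.17 and 6.63 at 72 h, a log2 change of -4.38 (SE 0.13, adjusted p = 5.1e-11), or 20.8-fold. CCNB2, a mitotic cyclin, read 11.66, 11.65 and 11.71 and then 7.80, 7.43 and 7.91, a change of -3.96 (SE 0.11, adjusted p = 3.5e-11). CDC6, which loads the replicative helicase on origins, read 9.88, 9.95 and 9.78 and then 6.03, 5.97 and 6.12, a change of -3.83 (SE 0.08, adjusted p = 3.43e-12) in all 3 of its probe sets. The groups of each gene were apart by more than 3 log2 units. NEIL3, a glycosylase of base excision repair, read 9.51, 9.52 and 9.54 and then 5.35, 5.02 and 5.29, a change of -4.30 (SE 0.16, adjusted p = 2.63e-10) in both probe sets. The 15 also held DUSP6, described below, DEPDC1, whose function is less defined, and LOC485338, annotated as a pseudogene, whose signal may be shared with its parent gene.

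The machinery of mitosis was lower almost throughout. Of 35 kinases and cyclins of mitotic entry 31 fell, of 34 centromere and kinetochore genes 30 and of 22 spindle and cytokinesis genes 19, with median log2 changes of -2.46, -2.69 and -2.63 against 0.02 over all genes, and 0 of these genes rose. PLK4, the kinase that starts centriole duplication, changed by -3.93 (SE 0.12), TPX2, which activates Aurora A on the spindle, by -3.82 (SE 0.12), NUF2, a subunit of the complex that holds microtubules at the kinetochore, by -3.86 (SE 0.11), and ECT2, which sets up the cleavage furrow, by -3.83 (SE 0.12). DSN1, of the kinetochore's inner complex, read 9.58, 9.50 and 9.53 untreated and 5.52, 5.11 and 5.79 at 72 h, so its groups did not overlap.

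Genome copying and its repair followed with smaller medians. Origin licensing and firing genes were lower in 25 of 30 (median -1.90) and those of the replication fork in 23 of 27 (median -1.65), with TOP2A, the topoisomerase that untangles replicated DNA, at 11.86, 11.39 and 10.97 untreated and 8.59, 8.34 and 7.37 at 72 h (log2 change -3.31, SE 0.28, adjusted p = 5.5e-07). The spread of TOP2A within each group was wide, yet the highest array of 72 h lay below the lowest untreated array. Histone supply and chromatin maintenance fell in 18 of 25 genes, led by the histone chaperone ASF1B at -3.11, and homologous recombination and Fanconi repair in 18 of 33, led by RAD51AP1 at -3.65. NBN, part of the complex that senses double-strand breaks, was the 1 repair gene of that list called higher, at 0.70. In base excision and mismatch repair the glycosylases NEIL2 (0.84) and NEIL1 (0.70) and the mismatch factor MLH3 (0.76) rose, while 9 of the 22 genes fell. NBN, NEIL2, NEIL1 and MLH3 were not called under the poly-A scaling, where this list had 0 rises and 15 falls. Condensin and cohesin held 13 falls in 21 genes, with NCAPG at -3.13, and 1 rise, of the cohesin loader NIPBL at 0.59, which lost its call under the poly-A scaling.

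The enzymes that supply nucleotides fell in 18 of 33 genes, including TK1, which recovers thymidine, at -3.49 (SE 0.11) and RRM2, the small subunit of ribonucleotide reductase, at -3.26 (SE 0.08). RRM2 read 12.57, 12.54 and 12.55 untreated and 9.36, 9.17 and 9.32 at 72 h, with no overlap. Among G1 regulators 8 of 21 fell and 0 rose. They were led by MYBL2, which drives mitotic genes with the DREAM proteins, at -3.26 (SE 0.06), with E2F8 at -2.40, the phosphatase CDC25A at -2.23, cyclin E1 (CCNE1) at -2.09 and cyclin D1 (CCND1) at -1.56.

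**Figure D2:**
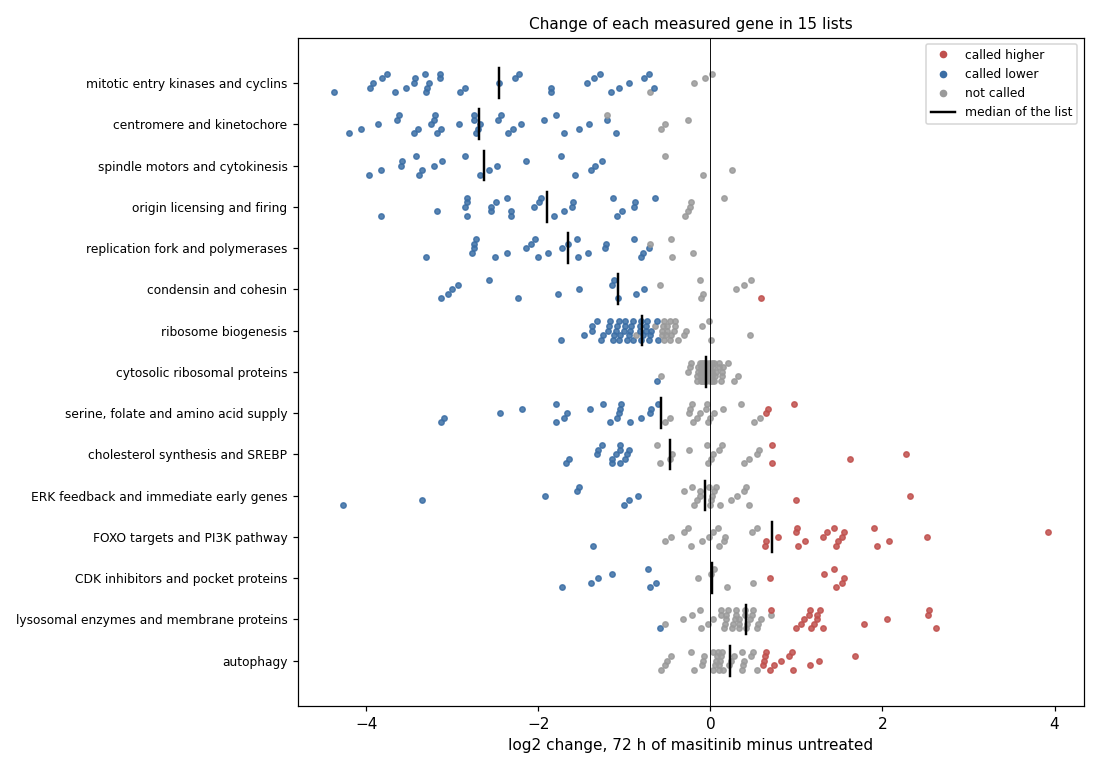
Log2 change at 72 h (horizontal axis) of every measured gene in 15 lists (vertical axis), in red where called higher, blue where called lower and grey where not called, with a black bar at the median of each list. The lists of mitosis lie furthest left with medians of -2.46 to -2.69, cytosolic ribosomal proteins sit near 0, and the FOXO list lies furthest right with a median of 0.71.

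Genes listed as CDK inhibitors and pocket proteins, with their partners, moved in both directions. CDKN1B (p27), an inhibitor of cyclin-dependent kinases, read 5.71, 5.99 and 5.50 untreated and 7.36, 7.17 and 7.06 at 72 h, a log2 change of 1.46 (SE 0.12, adjusted p = 4.39e-07). CDKN1A (p21), of the same family, read 7.58, 7.56 and 7.77 and then 9.08, 9.26 and 9.24, a change of 1.56 (SE 0.10, adjusted p = 4.69e-08) in 1 of its 3 probe sets. RBL2 (p130), the pocket protein of resting cells, rose by 1.52 (SE 0.07), whereas RBL1 (p107), which proliferating cells make, fell by 1.39. RBL2 was called in 2 of its 4 probe sets and RBL1 in 1 of its 3. In all, 6 of 18 members were called higher and 7 lower (5 and 7 under the poly-A scaling). The falls included GADD45G (-1.31), and LIN9 (-1.72) and LIN54 (-1.15) of the DREAM complex.

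FOXO targets and components of the PI3K pathway rose in 19 of 34 genes (55.9% against 8.73% of all genes) and fell in 1, with a median log2 change of 0.71, and of 0.24 under the poly-A scaling, where 13 rose and 6 fell. TXNIP, which binds thioredoxin and limits glucose uptake, read 8.86, 8.88 and 8.99 untreated and 12.85, 12.76 and 12.88 at 72 h, a change of 3.92 (SE 0.07, adjusted p = 1.85e-12), or 15.2-fold. TRIB1, a pseudokinase, changed by 2.52 (SE 0.09) in 1 of its 3 probe sets, the brightest. PDCD4, which restrains the translation helicase, changed by 2.07 (SE 0.06), and DEPTOR, an inhibitor of mTOR, by 1.93 (SE 0.19). The 3 arrays at 72 h were higher than the 3 untreated arrays in each.

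Other members were the sestrin SESN1 at 1.90 (SE 0.07), with 4 probe sets higher and 1 dim probe set lower, and the cyclin CCNG2 at 1.44 (SE 0.07). Chosen after their values were seen, the transcription factors FOXO1 and FOXO3 themselves changed by 1.01 (SE 0.15, adjusted p = 9.44e-05) and 0.78 (SE 0.06, adjusted p = 3.62e-07), and PIK3CA, the catalytic subunit of PI3K, by 1.02 (SE 0.08), and these 3 were not called under the poly-A scaling. The fall was that of PDK4, a pyruvate dehydrogenase kinase often counted as a FOXO target, at -1.37 (SE 0.10, adjusted p = 9.92e-08), from 6.43, 6.26 and 6.23 to 5.04, 4.78 and 4.99. PDK4 was called in 1 of its 2 probe sets.

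The genes by which ERK reports its own activity behaved differently from each other at 72 h. DUSP6, the phosphatase that switches ERK off, read 10.92, 10.97 and 10.93 untreated and 6.69, 6.52 and 6.81 at 72 h, a log2 change of -4.27 (SE 0.08, adjusted p = 3.43e-12) in both probe sets. ETV5, an ETS factor induced by ERK, changed by -3.35 (SE 0.12, adjusted p = 2.96e-10), and SPRED1, an inhibitor of RAS signalling, by -1.92 (SE 0.11, adjusted p = 2.18e-08). JUN, of the AP-1 factor, read 5.96, 5.55 and 5.32 and then 7.99, 8.02 and 7.80, a change of 2.32 (SE 0.13, adjusted p = 9.56e-09). Over the list of ERK feedback and immediate early genes, 8 of 28 were lower and 2 higher, JUN and PHLDA1, a pleckstrin homology protein, at 1.00, and PHLDA1 was not called under the poly-A scaling.

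Set directly against 24 h in the same fit, 7 of these 28 genes were higher at 72 h and 0 lower, where 1.96% of all genes were called higher and 1.81% lower. FOS, named after its values were seen, had a log2 change of -1.45 at 24 h and 0.31 at 72 h, a difference of 1.76 (adjusted p = 4.3e-07). EGR1 stood at -2.54 and then -1.53, DUSP1 at -0.80 and 0.24, IER3 at -0.56 and 0.44, MYC at -0.19 and 0.42, JUN at 0.66 and 2.32 and PHLDA1 at 0.23 and 1.00. DUSP6 and ETV5 differed from 24 h by 0.02 and 0.07 (SE 0.08 and 0.12) and were not called.

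Among the kinases that masitinib blocks, KIT itself read 12.63, 11.94 and 11.75 untreated and 13.35, 13.42 and 12.24 at 72 h. The groups overlapped and the log2 change of 0.90 (SE 0.28, adjusted p = 0.0229) was not called, nor was its other probe set. The Src family members LYN (-0.28) and FYN (0.20), the receptors PDGFRA (-0.01) and PDGFRB (0.09) and the KIT ligand (KITLG, 0.17) were not called either, and LCK fell by 0.66 (SE 0.07). Of the related kinases BTK rose from 11.57, 11.71 and 11.63 to 12.83, 12.76 and 12.89, a change of 1.19 (SE 0.06, adjusted p = 3.8e-09), FER by 0.98 and FES by 0.86. FER and FES lost their calls under the poly-A scaling.

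The list of genes that restrain receptor signalling also holds PTPN11, which passes the signal on. PTPRC (CD45), the leukocyte phosphatase, rose by 1.77 (SE 0.10, adjusted p = 1.92e-08), from 8.39, 8.43 and 8.28 to 10.18, 10.24 and 9.98. PTPN6 (SHP-1), which removes phosphate from KIT, rose by 1.05 (SE 0.06, adjusted p = 6.42e-09). PTPN11 (SHP-2), which passes the KIT signal to RAS, fell by 1.07 (SE 0.15, adjusted p = 6.79e-05), from 7.36, 7.17 and 7.06 to 6.48, 6.00 and 5.90, and the receptor phosphatase PTPRJ fell by 1.10. In this list 5 of 20 genes were higher and 2 lower (median 0.05), or 2 and 6 under the poly-A scaling (median -0.42), where PTPN6 was not called.

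Mast cell markers rose or were not called. Of 12 measured, 5 rose and 0 fell, with a median log2 change of 0.84, and of 0.37 under the poly-A scaling, where 1 was higher and 1 lower. GATA2, the transcription factor of mast cell progenitors, read 7.76, 7.83 and 7.93 untreated and 9.73, 9.60 and 9.47 at 72 h, a change of 1.76 (SE 0.12, adjusted p = 8.68e-08). MITF, which with GATA2 sets the mast cell programme, changed by 0.96 (SE 0.06) and was called in 3 of its 6 probe sets. FCER1A, the IgE-binding chain, changed by 0.98 (SE 0.05), from 13.58, 13.57 and 13.62 to 14.55, 14.58 and 14.60, and was called in 2 of its 3. Neither MITF nor FCER1A was called under the poly-A scaling. The chymase CMA1 changed by 0.89 and serglycin (SRGN), the core of the granule proteoglycans, by 0.80.

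The remaining markers missed a threshold. Histidine decarboxylase (HDC), which makes histamine, and MS4A2, the beta chain of the IgE receptor, both changed by 0.58 (adjusted p = 3.49e-06 and 1.03e-06), just under 1.5-fold. CPA3, the granule carboxypeptidase, changed by 0.26, ENPP3, a surface marker of mast cells, by 0.07 and HPGDS, the prostaglandin D synthase, by 1.11 (SE 0.22, adjusted p = 0.001). SLC18A2, the vesicle pump for histamine and serotonin, changed by -0.55 and was also not called.

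Genes of granule contents, of the enzymes that modify them and of mast cell activation moved both ways. MRGPRX2, the receptor through which peptides and drugs activate mast cells, read 5.33, 5.28 and 5.66 untreated and 7.75, 7.73 and 7.90 at 72 h, a log2 change of 2.37 (SE 0.10, adjusted p = 6.57e-10). NDST2, which sulphates heparin, rose by 1.61 (SE 0.07) and the protease inhibitor SERPINB1 by 1.28 (SE 0.05). Falls were those of the protease cathepsin G (CTSG) at -1.24 (SE 0.09), from 6.77, 6.94 and 6.90 to 5.76, 5.47 and 5.66, of heparanase (HPSE), which cuts heparin, at -1.38 and of the chondroitin sulphotransferase CHST11 at -1.29. In all, 5 of 17 genes of this list were higher and 3 lower (median 0.14), or 3 and 5 under the poly-A scaling (median -0.33). The IgE receptor and its signalling genes had 4 rises and 0 falls in 23 (median 0.28), or 1 and 4 under the poly-A scaling (median -0.19).

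Of 19 genes for the synthesis of lipid mediators 3 rose and 1 fell (median -0.11), or 2 and 9 under the poly-A scaling (median -0.58). LTC4S, which makes leukotriene C4, read 10.09, 10.20 and 10.29 untreated and 13.94, 13.95 and 14.01 at 72 h, a log2 change of 3.78 (SE 0.06, adjusted p = 1.43e-12), or 13.7-fold, and was higher at 72 h than at 24 h by 1.08 (adjusted p = 2.7e-07). PTGS1 (COX-1), the constitutive prostaglandin synthase, changed by 1.31 (SE 0.06, adjusted p = 9.7e-10). ALOX5, the enzyme that starts leukotriene synthesis, was not called (-0.14).

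Interleukins were among the cytokine genes that increased. IL13, a cytokine of type 2 responses, read 4.40, 4.55 and 4.45 untreated and 8.64, 8.18 and 8.94 at 72 h, a log2 change of 4.12 (SE 0.21, adjusted p = 4.55e-09). IL6 read 6.43, 6.26 and 6.23 and then 8.60, 8.28 and 8.54, a change of 2.17 (SE 0.09, adjusted p = 1.28e-09). IL18, activated by inflammasomes, changed by 1.78 (SE 0.07), the suppressive IL10 by 1.41 (SE 0.08) and EPOR, the erythropoietin receptor, by 1.40 (SE 0.07). Of 50 cytokines, chemokines and receptors 9 rose and 0 fell, with a median of 0.14 over the list, which became -0.33 under the poly-A scaling, where 6 rose and 3 fell. CCL26, an eosinophil chemokine chosen after its values were seen, was up by 1.90 at 24 h and differed from untreated by 0.34 at 72 h, and it fell by 1.56 between the times (adjusted p = 2.8e-05).

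**Figure D3:**
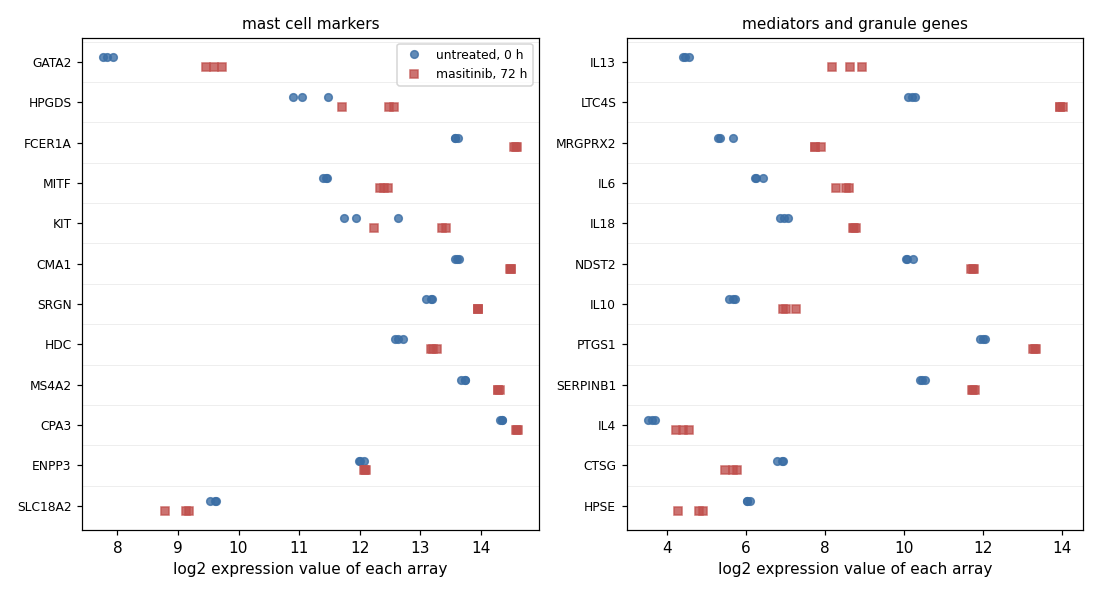
Log2 expression value of each array (horizontal axis) for the 12 mast cell markers (left) and for 12 mediator and granule genes (right), with blue circles for the 3 untreated arrays and red squares for the 3 arrays of 72 h. The arrays of KIT overlap, those of IL13 and LTC4S are apart by log2 changes of 4.12 and 3.78, and CTSG and HPSE lie lower at 72 h.

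Some markers of other blood lineages were higher. EPB42, a protein of the red cell membrane skeleton, read 4.79, 4.64 and 4.57 untreated and 7.42, 7.88 and 7.63 at 72 h, a log2 change of 2.98 (SE 0.12, adjusted p = 8.05e-10). ALAS2, the first enzyme of haem synthesis in red cell precursors, changed by 1.14 (SE 0.09), the embryonic globin HBE1 by 1.11 (SE 0.06) and EPOR by 1.40, so that 4 of 7 erythroid markers rose, with a median of 1.11 (0.64 under the poly-A scaling). The mean level of this list was 6.74 to 6.81 untreated and 7.66 to 7.83 at 72 h.

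For megakaryocytes and platelets 3 of 7 markers rose: GP9, of the von Willebrand factor receptor, from 8.83, 8.80 and 9.00 to 10.33, 10.33 and 10.45 (2.82-fold), P-selectin (SELP) by 1.18 and the integrin ITGA2B by 0.61, which was not called under the poly-A scaling. Macrophage markers were higher in 4 of 18. CD5L, a secreted protein of macrophages, read 5.06, 5.06 and 4.71 and then 9.05, 9.06 and 9.54, a change of 4.27 (SE 0.17, adjusted p = 6.02e-10). Others were the adaptor TYROBP at 1.71 (SE 0.07) and lysozyme (LYZ) at 1.62 (SE 0.07), and 2 of 10 endothelial markers rose, PECAM1 and the growth factor receptor KDR, the latter by 2.54 (SE 0.07) from 9.17, 9.21 and 9.34 to 11.83, 11.67 and 11.84. The median change was 0.28 for the megakaryocyte list, 0.19 for the macrophage list and 0.21 for the endothelial list, or -0.19, -0.28 and -0.26 under the poly-A scaling. The mean level of the macrophage list was 6.23 to 6.26 untreated and 6.72 to 6.86 at 72 h. Epithelial markers had 3 rises and 2 falls in 12 genes, or 2 and 3 under the poly-A scaling. They included the largest rise of all genes, that of the stomach-lining protein gastrokine 1 (GKN1), from 5.89, 5.70 and 5.28 to 10.51, 10.44 and 10.75, a change of 4.94 (SE 0.15, adjusted p = 7.39e-11). Granulocyte markers had 2 rises and 1 fall in 11 (1 and 3 under that scaling) and B cell markers 1 rise and 0 falls in 7 (0 and 2). Fibroblast and dendritic cell markers had 0 calls in 12 and 7 genes, and T and NK cell markers had 0 rises and 2 falls in 11. Whether all of this RNA came from the mast cells themselves was not tested.

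Blood lineage transcription factors moved both ways, with 7 of 34 higher and 5 lower (median 0.15), or 4 and 8 under the poly-A scaling (median -0.32). FLI1, a factor of megakaryocytes and stem cells, changed by 1.44 (SE 0.10) and ZEB2 by 1.35, while MYB, which keeps progenitors dividing, changed by -0.72 (SE 0.09, adjusted p = 3.43e-05) and STAT5B, which acts below cytokine receptors and KIT, by -0.90. Haem synthesis was uneven within its own pathway, with UROS at 1.39, FECH at 0.99 and UROD at 0.84 higher, the coproporphyrinogen oxidase CPOX at -1.47 lower, and the transferrin receptor TFRC, which brings in iron, lower by a log2 change of -1.28 (SE 0.12, adjusted p = 1.53e-06). FECH and UROD lost their calls under the poly-A scaling.

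Genes that assemble ribosomes fell, and those of the ribosomal proteins themselves were mostly not called. Of 62 genes for ribosome biogenesis 39 were lower and 0 higher (median log2 change -0.80), and of 52 cytosolic ribosomal proteins 1 was lower, RPL36 at -0.62, with a median of -0.05. Under the poly-A scaling 12 of the ribosomal proteins were lower and the median was -0.52. NPM1, the nucleolar chaperone, read 12.07, 12.14 and 12.13 untreated and 10.33, 10.29 and 10.50 at 72 h, a change of -1.74 (SE 0.06, adjusted p = 3.19e-10), and DDX21, a nucleolar helicase, changed by -1.47 (SE 0.07). Cytosolic tRNA synthetases fell in 11 of 20 genes, the mitochondrial ribosome and its translation in 33 of 80, splicing factors in 25 of 58 and nuclear pore and transport genes in 22 of 53, with medians of -0.62, -0.57, -0.53 and -0.53.

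Enzymes that make the building blocks of growth were lower. MTHFD2, the mitochondrial folate enzyme of dividing cells, read 9.49, 9.35 and 9.26 untreated and 6.48, 6.22 and 6.01 at 72 h, a log2 change of -3.13 (SE 0.10, adjusted p = 1.24e-10). PHGDH, which opens serine synthesis, read 12.37, 12.45 and 12.48 and then 9.90, 9.94 and 10.10, a change of -2.45 (SE 0.08, adjusted p = 1.25e-10) in all 5 probe sets. PSAT1, the next enzyme of that route, changed by -2.20 and BCAT1, which transfers nitrogen from branched amino acids, by -3.10. Of 40 genes for serine, folate and amino acid supply 20 fell and 3 rose, or 27 and 0 under the poly-A scaling.

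Genes of sterol metabolism moved both ways. MYLIP, which marks the LDL receptor for destruction, read 9.43, 9.36 and 9.30 untreated and 11.68, 11.59 and 11.64 at 72 h, a log2 change of 2.27 (SE 0.06, adjusted p = 1.44e-11) in all 3 probe sets. NR1H3 (LXR alpha), the sterol sensor that induces MYLIP, changed by 1.62 (SE 0.06, adjusted p = 4.76e-10). Enzymes of synthesis such as MVD (-1.65) and SQLE (-1.31) and the SREBP regulator INSIG1 (-1.68) were lower. The list had 14 falls and 4 rises in 33 genes, or 19 and 2 under the poly-A scaling.

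**Figure D4:**
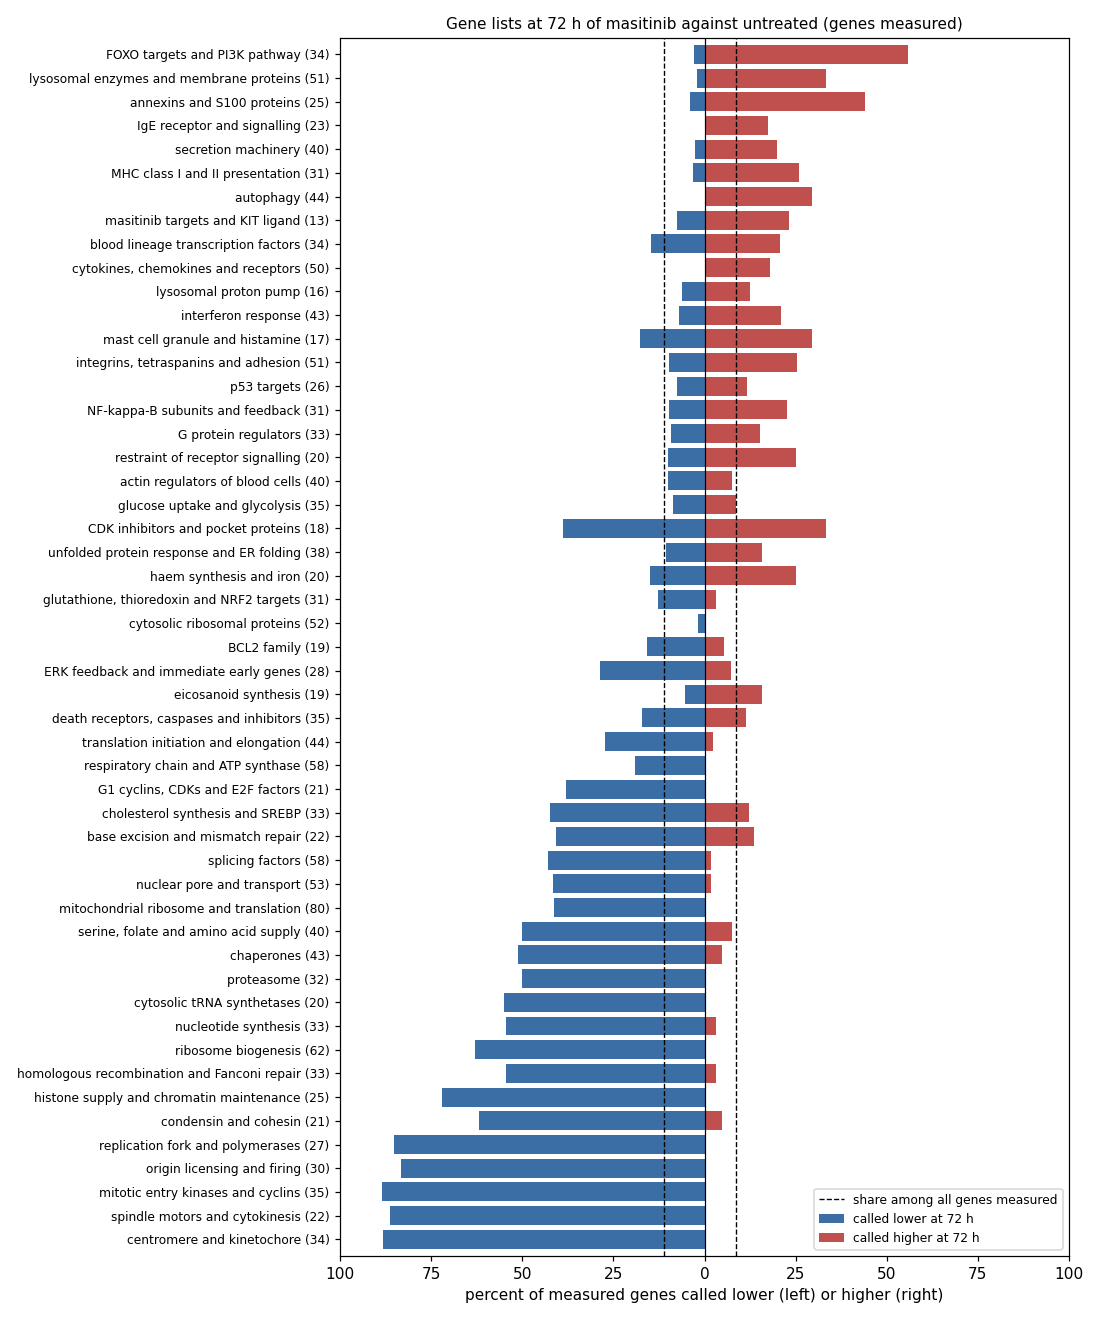
Percent of the measured genes of each list that were called lower (blue, to the left) or higher (red, to the right) at 72 h, with the number measured in parentheses and dashed lines at the shares among all genes, 11.0% lower and 8.73% higher. Lists are ordered by median log2 change, from centromere and kinetochore genes with 88.2% lower to FOXO targets with 55.9% higher.

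Of 51 lysosomal enzymes and membrane proteins 17 were higher and 1 lower, with a median log2 change of 0.41 that became -0.06 under the poly-A scaling, where 14 were higher and 5 lower. CTSS, a cathepsin that trims antigens, read 9.80, 9.68 and 9.63 untreated and 12.36, 12.31 and 12.32 at 72 h, a change of 2.63 (SE 0.07, adjusted p = 2.02e-11). GM2A, which presents gangliosides to their hydrolase, changed by 2.54 (SE 0.06), cathepsin F (CTSF) by 2.53 (SE 0.06) in all 4 probe sets and cathepsin K (CTSK) by 2.06 (SE 0.07). Of 16 subunits of the pump that acidifies lysosomes 2 were higher and 1 lower, ATP6V0A2 at -0.99 (median 0.14), or 0 and 4 under the poly-A scaling (median -0.33).

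In the autophagy list 13 of 44 genes rose and 0 fell, with a median of 0.23 that became -0.24 under the poly-A scaling, where 3 rose and 6 fell. MAP1LC3B, whose lipid-bound form coats autophagosomes, read 11.29, 11.33 and 11.35 untreated and 13.01, 12.99 and 13.02 at 72 h, a log2 change of 1.68 (SE 0.05, adjusted p = 5.5e-11), and ATG13, of the starting kinase complex, changed by 1.26 (SE 0.08). Secretion genes rose in 8 of 40 and fell in 1 (median 0.27), or 1 and 7 under the poly-A scaling (median -0.20). UNC13D, which primes granules for release, changed by 1.02 and the granule SNARE VAMP8 by 0.92, and neither was called under that scaling.

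Of 25 annexins, S100 and related calcium-binding proteins 11 were higher and 1 lower (median 0.29), or 3 and 4 under the poly-A scaling (median -0.18). Gelsolin (GSN), which severs actin filaments, read 9.68, 9.68 and 9.74 untreated and 11.80, 11.84 and 11.82 at 72 h, a log2 change of 2.12 (SE 0.06, adjusted p = 2.37e-11). ANXA1, which ends inflammation, changed by 1.68 (SE 0.06) in all 3 probe sets, and ANXA2 by -1.06 (SE 0.06), from 9.70, 9.69 and 9.68 to 8.62, 8.56 and 8.71. Of 40 actin regulators of blood cells 3 were higher and 4 lower (median 0.05), or 0 and 16 under the poly-A scaling (median -0.43). The actin-capping protein CAPG changed by 0.71, a call lost under that scaling, and the severing factor CFL2 by -0.67 in both probe sets. ANXA1 and CAPG belong to the proteins picked from gels of the same cultures, so the choice of that list is not independent of these cells. Of its 25 measured genes 6 were higher and 7 lower, or 1 and 13 under the poly-A scaling. It holds genes such as EIF4A2 (0.74), where the study names the protein only as EIF4A. These counts pool proteins that rose and fell on the gels, and the study's own comparison of RNA with protein is not repeated here. Of 28 genes that the text of the study names, from the same arrays or gels, 10 were higher and 7 lower, or 8 and 9 under the poly-A scaling. Some genes, such as ANXA1, are on both lists.

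Among surface receptors for cell contact, rises exceeded the share over all genes and falls did not. TSPAN2, a tetraspanin, changed by 3.18 (SE 0.09, adjusted p = 4.36e-11), CD48, a ligand of natural killer cell receptors, by 2.26 (SE 0.07) and CD44, which binds hyaluronan, by 1.97 (SE 0.11). ITGA6, the laminin-binding integrin, read 9.11, 9.04 and 9.03 untreated and 5.91, 5.12 and 5.86 at 72 h, a log2 change of -3.43 (SE 0.16, adjusted p = 2.24e-09) in its brightest probe set, and 2 of its 4 probe sets were called. ITGA2, the collagen-binding integrin, changed by -1.78 and EPCAM by -1.54 (SE 0.07). The list had 13 rises (25.5% against 8.73% of all genes) and 5 falls (9.80% against 11.0%) in 51 genes. Its median of 0.14 became -0.34 under the poly-A scaling, where 6 rose and 11 fell.

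Antigen presentation and interferon genes rose in part. The class I genes DLA88 and DLA-64, which are alike in sequence and may share signal, changed by 1.71 (SE 0.11) and 1.45 (SE 0.08), and PSMB9, a subunit of the immunoproteasome, by 1.44 (SE 0.07), from 10.36, 10.36 and 10.40 to 11.69, 11.85 and 11.90. All 3 were also higher than at 24 h, by 0.78, 1.06 and 1.05. Of 31 presentation genes 8 rose and 1 fell (median 0.27), or 3 and 5 under the poly-A scaling (median -0.20). The standard proteasome had 16 falls and 0 rises in 32 genes. IRF2 (1.82) led the interferon list of 9 rises and 3 falls in 43 genes (median 0.14), or 5 and 8 under the poly-A scaling (median -0.33), and USP18, an interferon-induced brake, fell by 1.14.

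The BCL2 family, which sets the threshold of apoptosis at the mitochondrion, had 1 rise, BNIP3L at 0.99, and 3 falls in 19 genes, shares of 5.26% and 15.8% near those of all genes, and BNIP3L was not called under the poly-A scaling. BCL2, which protects from apoptosis, was among the falls and read 9.17, 8.82 and 8.50 untreated and 7.89, 8.0 and 7.83 at 72 h (log2 change -0.92, SE 0.14, adjusted p = 1.04e-04). TNFSF10 (TRAIL), a death receptor ligand, read 10.23, 10.26 and 10.25 and then 11.96, 11.85 and 11.93, a change of 1.67 (SE 0.07, adjusted p = 4.89e-10), and its level at 72 h exceeded that at 24 h by 1.08 (adjusted p = 4.03e-07). BIRC5 (survivin), which serves the mitotic spindle as well as survival, changed by -2.73. Among 26 p53 targets 3 rose and 2 fell (median 0.13), or 2 and 8 under the poly-A scaling (median -0.35).

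Between 24 h and 72 h 297 genes were higher (1.96%) and 274 lower (1.81%). Of the 1320 genes higher than untreated at 72 h, 175 were also higher than at 24 h, 14 were lower and 1131 were not called in that contrast, and of the 1668 fallen genes 170 were lower still and 43 higher. Both contrasts share the 72 h arrays, so these counts are no independent check of each other. A further 79 genes were higher and 90 lower than at 24 h without being called against untreated.

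The largest falls after 24 h included genes with no call or a rise at that time. OCA2, a melanosome transporter, read 7.43, 7.58 and 7.56 untreated and 4.47, 3.65 and 3.97 at 72 h, a log2 change of -3.49 (SE 0.15, adjusted p = 1.21e-09) in 1 of its 2 probe sets, and at 24 h its change was -0.43. SMPDL3A, a secreted phosphodiesterase, read 8.0, 7.92 and 7.88 untreated and 5.24, 4.71 and 5.25 at 72 h, a change of -2.87 (SE 0.13) against 1.08 at 24 h. DCT, a pigment enzyme, stood 2.13 above untreated at 24 h and was back at 6.43, 6.50 and 6.36 by 72 h against 6.31, 6.71 and 6.33 untreated (-0.02, adjusted p = 0.904).

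Among late rises the histone gene H4-16 stood at a log2 change of 0.28 at 24 h and 2.13 at 72 h, and read 4.66, 4.65 and 4.96 untreated against 6.89, 6.67 and 7.09 at 72 h. Histone genes are alike in sequence, so its signal may be shared. IL13 went from 1.81 at 24 h to 4.12 and PECAM1 from 1.67 to 4.28. ITGA6 fell from -0.63 to -3.43 between the same times, and DLGAP5, a spindle protein, from -1.11 to -3.43.

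**Figure D5:**
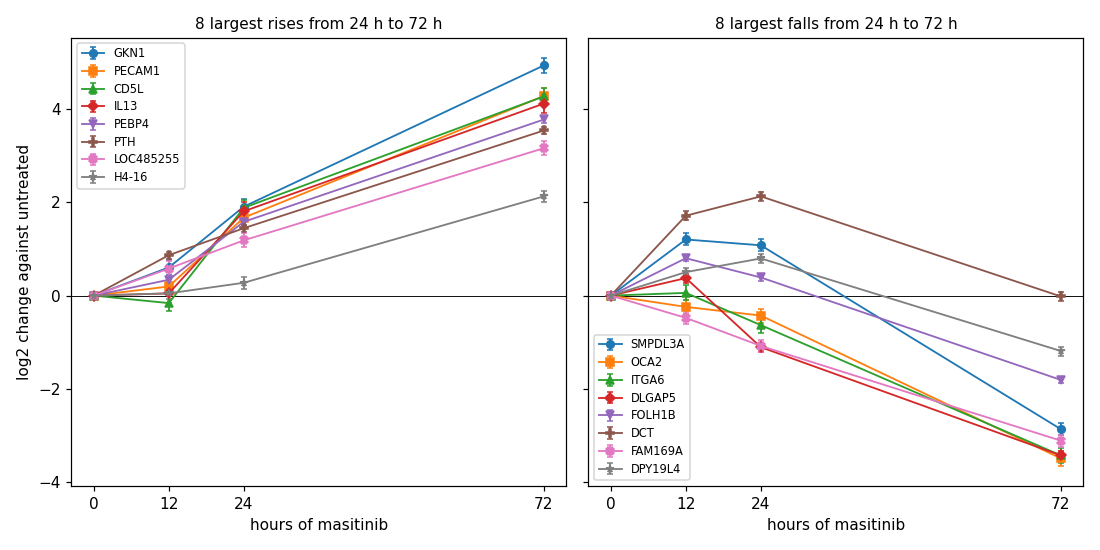
Log2 change against untreated (vertical axis) at 12, 24 and 72 h of masitinib (horizontal axis) for the 8 genes with the largest rise (left) and the 8 with the largest fall (right) from 24 h to 72 h, with bars of 1 SE from the fit and 3 arrays per time. GKN1 climbs to 4.94, SMPDL3A turns from 1.08 at 24 h to -2.87, and DCT returns from 2.13 to -0.02.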

How the data were processed

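Total RNA of C2 cells was hybridised to Affymetrix Canine Genome 2.0 arrays, 3 per time point. The authors processed the scans with the gcRMA workflow of Partek Genomics Suite by median polish after background correction and quantile normalization. Partek and RMA are also the tools in the submitters' processing notes. The deposited values are log2 expression values, and quantile normalization removes a change shared by most transcripts. Of 43035 probe sets 111 controls were set aside and 42924 tested. The platform annotation gave 29254 probe sets 1 gene symbol, 439 several and 13231 none, 27680 were matched by Entrez identifier to RefSeq names of UU_Cfam_GSD_1.0, and 15115 genes resulted, 8254 with more than 1 probe set. Each gene was read from its brightest probe set by the mean of 12 arrays.

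A limma model (R 4.3.3, limma 3.58.1) with 1 coefficient per time point was fitted to all 12 arrays, with Benjamini-Hochberg adjustment over all 42924 probe sets. Probe sets below 0.001 in adjusted p and beyond 1.5-fold were called. The code was checked on simulated data. Tables and figures used Python 3.11.15 with numpy 2.4.6, pandas 2.3.3 and matplotlib 3.10.9. Precision is limited by the number of arrays, and the median residual SD was 0.1124 (log2).

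The 53 gene lists, 11 marker lists and tests were chosen with earlier results of these data known. Named genes are the 15 largest rises and falls among called genes whose groups did not overlap, and up to 4 called members per list and direction. Masitinib targets, genes of the gel-identified proteins and those the study names were added. So were the 8 largest rises and falls between 24 h and 72 h, called cell type markers and all mast cell markers, 349 genes in all. A list member named outside this rule was chosen after its values were seen. Alternatives covered the test, the arrays fitted, the thresholds, dim probe sets, scaling, the probe set chosen, the replicate number and leaving out each array. Promoter sequences are not analysed here.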

Additional observations from a re-analysis of the deposited data

Results flagged for a closer look

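The poly-A control probe sets read higher at 72 h than at 0 h by 0.4713 on the log2 scale, and the hybridization controls by 0.1978. The part of the poly-A controls in the results was not tested beyond the scaling given above. That of the hybridization controls was not tested. In the direct contrast of 72 h with 24 h, 297 genes were higher and 274 lower.

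The log2 change at 72 h exceeded that at 24 h by 3.03 for GKN1, 2.61 for PECAM1, 2.39 for CD5L, 2.31 for IL13, 2.19 for PEBP4, 2.10 for PTH, 1.98 for LOC485255 and 1.86 for H4-16. It differed the other way by -3.95 for SMPDL3A, -3.07 for OCA2, -2.80 for ITGA6, -2.32 for DLGAP5, -2.20 for FOLH1B, -2.15 for DCT, -2.03 for FAM169A and -1.99 for DPY19L4. These genes were chosen among those called in the direct contrast of the times, so that call is no separate support. With 3 arrays per group, single arrays were not tested as outliers.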

How the results depend on the processing

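Scaling to the poly-A controls gave 541 genes higher and 4638 lower than untreated, 89.55% of them lower against 55.82%, and against 24 h it gave 142 genes lower, 24.87% of the calls against 47.99%, while 429 were higher. A threshold of more than 2-fold left 612 higher and 776 lower against untreated and 70 and 77 against 24 h, and an adjusted p under 0.05 with no fold threshold gave 3293 and 3477, and 1587 and 1584. Fitting only the arrays compared gave 184 higher and 155 lower against 24 h in place of 297 and 274. The other alternatives, that is the analysis of variance with Storey q-values, median centring, cyclic loess, the dim filter and the other choices of probe set, gave 2671 to 3545 calls against untreated, within 1.5 times the 2988 reported. Leaving out each array of the 2 groups in turn gave 2842 to 2989 (1259 to 1306 higher, 1580 to 1683 lower), and against 24 h 218 to 291 higher and 213 to 257 lower.

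Of the 316 named genes that were called 2 changed sign with the choice of probe set: SRSF5 changed by -1.2023 in its probe set with the largest change against 0.65, and PDK1 by -0.0288 as the mean of its probe sets and -0.6944 in that with the largest change against 0.64. The cause was not tested. Under the poly-A scaling 57 of them lost the call and 0 changed sign, while named genes that were not called, such as KITLG (0.17 to -0.30), could turn. List counts of 0 to 3 moved most when an array was left out: the fall of RPL36 among ribosomal proteins was not called without 72 h replicate 2, a 2nd ribosomal protein was lower without 0 h replicate 1 or 72 h replicate 1, the autophagy list gained 1 fall without 72 h replicate 1 or 3, the rise of NIPBL was lost without 0 h replicate 2 or 3 or 72 h replicate 1 or 2, and the fall of GALNS in the lysosomal list without 0 h replicate 2 or 3 or 72 h replicate 2. The 3 falls of the NF-kappa-B list became 1 without 0 h replicate 3 or 72 h replicate 3, the 2 of the p53 targets became 1 without 0 h replicate 1, and the annexin list had 2 falls without 0 h replicate 3. Among G1 regulators 1 gene rose without 72 h replicate 3.

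The main fit did not pair the arrays by replicate number. Deviations from the group means correlated at 0.39, -0.08 and 0.41 for arrays with the same number, and at -0.46 to 0.18 for those with different numbers. The values of 0.39 and 0.41 lay above that range. Deviations within a group cancel out, so high values for the same number push those for different numbers down. That range is therefore no independent reference, and whether arrays of the same number were handled together was not tested. With the replicate block 2936 genes were called against untreated (1293 higher, 1643 lower), of which 2925 were among the 2988, and 275 higher and 255 lower against 24 h. The number of arrays, 3 per group, limits the precision, and without detection calls it is not known which dim genes were above background.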
